A study of Mus musculus with 172 samples.

Results

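The long noncoding RNAs Malat1, Neat1, Meg3, Rian, Mirg, Miat and Snhg11 were followed through cortex and liver of BXD mice, with and without 6 h of enforced wakefulness. These 7 genes were chosen by name. All 7 were among the 14896 genes listed in cortex, and 5 of them were among the 14107 genes listed in liver, where Mirg and Miat were not listed. The 2 tissues together listed 16308 genes.

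The BXD lines are recombinant inbred strains bred from C57BL/6J (B6) and DBA/2J (D2), so that each line carries its own fixed mixture of the parental genomes. Male mice aged 11 to 14 weeks were either sleep deprived by gentle handling in the home cage for the first 6 h of the light phase (SD) or left undisturbed in another room (Ctr). Both groups were killed at ZT6, that is, 6 h after light onset, and cortex and liver were taken from the same mice. RNA of 3 mice per strain, tissue and condition was combined by the authors into 1 pool and 1 library, with fewer mice for BXD79, BXD85 and BXD101, so that the spread between single mice cannot be seen. The paper does not state whether the cortex and liver pools of a strain held the same mice. The comparisons used 39 pools in each tissue and condition, namely 33 BXD/RwwJ lines, 2 pools each of B6 and D2 from the start and the end of the collection period, and 1 pool from each reciprocal F1 cross (BD-F1 from a B6 mother and a D2 father, DB-F1 from the reverse). The Ctr and SD pools of a strain came from different mice. The 4 BXD/TyJ lines BXD05, BXD29, BXD29t and BXD32 were kept apart from these comparisons. Libraries held 18995492 to 28998853 reads on listed genes in cortex and 4681101 to 8269401 in liver. The tissue labels were checked with marker genes. Of 6 neuron markers, 6 were listed in cortex and 2 in liver, and of 6 hepatocyte markers, 1 (Ttr) was listed in cortex and 6 in liver.

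Long noncoding RNAs are transcribed and processed much like messenger RNAs but are not translated. Malat1 and Neat1 lie side by side and stay in the nucleus, Malat1 in the nuclear speckles that store splicing factors and Neat1 as the scaffold of paraspeckles, bodies that hold RNA-binding proteins. Meg3, Rian and Mirg lie in this order in the imprinted Dlk1-Dio3 cluster, where they are transcribed from the maternal chromosome. Rian is the host of small nucleolar RNAs (snoRNAs) and Mirg the host of many microRNAs. Miat is a nuclear RNA of neurons, and Snhg11 belongs to the host genes of snoRNAs and is abundant in brain. The libraries were made from polyadenylated RNA. Malat1 and the long form of Neat1 are known to end without the usual poly(A) tail, so that their levels here are those of molecules that the selection retained.

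In the mm9 build, which the files use, GENCODE places Malat1 at chr19:5795690-5802671 and Neat1 at chr19:5824708-5845478, both on the minus strand with 22.0 kb between them. Meg3 spans chr12:110779211-110809936, Rian chr12:110842155-110899919 and Mirg chr12:110973191-110987665, all on the plus strand, with gaps of 32.2 and 73.3 kb. Miat lies at chr5:112642248-112657968 on the minus strand. Snhg11 lies at chr2:158201374-158211881 on the plus strand, and this GENCODE release types it as protein coding.

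Start regions are shown for the 3 members of the Dlk1-Dio3 cluster, because they share a strand and a locus and 2 of them passed the test for SD in cortex. Each run holds 250 bases before and 50 bases after the annotated start, on the plus strand, from RefSeq on GRCm38.p6, at chr12:109540746-109541045 for Meg3 (the more upstream of its 2 starts), chr12:109603695-109603994 for Rian and chr12:109734731-109735030 for Mirg. Capitals mark matches to the motifs searched on both strands. These were the letters TATAAA for the core promoter box of that name, CCAAT for the box bound by NF-Y, CACGTG for the E-box of clock and other helix-loop-helix factors, TGACGTCA for the cAMP response element (CRE), TGANTCA for the site of the AP-1 factors, GCGTGGGCG for the site of the Egr factors and TTCNNGAA for the core of the heat shock element.
Meg3: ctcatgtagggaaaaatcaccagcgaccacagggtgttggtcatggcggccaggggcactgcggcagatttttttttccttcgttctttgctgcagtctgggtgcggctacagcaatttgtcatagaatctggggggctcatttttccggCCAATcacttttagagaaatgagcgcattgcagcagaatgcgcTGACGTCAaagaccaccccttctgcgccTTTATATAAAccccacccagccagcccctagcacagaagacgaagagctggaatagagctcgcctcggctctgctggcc
Rian: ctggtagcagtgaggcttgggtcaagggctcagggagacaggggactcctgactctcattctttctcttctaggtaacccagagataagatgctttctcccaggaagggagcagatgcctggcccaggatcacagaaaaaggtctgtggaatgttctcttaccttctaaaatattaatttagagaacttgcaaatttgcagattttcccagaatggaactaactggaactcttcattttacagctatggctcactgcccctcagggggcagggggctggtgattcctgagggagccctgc
Mirg: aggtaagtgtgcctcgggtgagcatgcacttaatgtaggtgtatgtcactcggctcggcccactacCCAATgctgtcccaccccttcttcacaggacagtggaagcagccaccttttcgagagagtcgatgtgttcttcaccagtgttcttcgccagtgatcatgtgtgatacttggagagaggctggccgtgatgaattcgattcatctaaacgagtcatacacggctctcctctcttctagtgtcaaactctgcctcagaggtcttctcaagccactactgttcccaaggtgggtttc
The Meg3 run held the TATA motif on both strands in overlapping letters that begin at positions -29 and -25 from the start, the CRE motif at -57 and the NF-Y motif at -100. Of 32851 RefSeq promoter windows of this length, 13.6% held the TATA motif, 1.79% the CRE motif and 37.4% the NF-Y motif. The Mirg run held the NF-Y motif at -184. None of the 7 motifs was matched in the run of Rian, in the second window of Meg3, or in the windows of Malat1, Miat and Snhg11. The E-box, AP-1, Egr and heat shock motifs stood in 7.15%, 7.81%, 0.612% and 8.52% of all windows. The windows differed in base composition, from 47% GC in Malat1 to 64.3% in Miat against a median of 52.7% over all windows, and Rian held 0 CG pairs where Miat held 25 and Snhg11 21.

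By reads, Meg3 was the most abundant listed transcript in cortex. Its level, in log2 CPM (read counts scaled to a common library size, on the log2 scale), ranked 1 of 14896 in Ctr. It took 0.775% of the scaled reads on listed genes on average. Snhg11 ranked 7 with 0.354% of these reads, Malat1 52, Miat 57 and Rian 262, while Neat1 ranked 4335 and Mirg 7682. Long transcripts gather more reads, so members were compared with each other per kilobase of exon. Of 13772 cortex genes with a GENCODE length, Meg3 ranked 29, Snhg11 31 and Malat1 151 per kilobase in Ctr. On this scale (log2 CPM per kb, Ctr) the order in cortex was Meg3 with 8.73, Snhg11 with 8.66, Malat1 with 7.44, Miat with 7.01, Rian with 5.94, Mirg with 2.74 and Neat1 with 1.40. Meg3 and Snhg11 were 0.08 apart, less than the standard deviation (s.d.) of 0.34 between pools, and Meg3 was the higher in 20 of 39 pools. Every other pair of neighbours in that order was farther apart than the larger of their s.d. values. The order was the same in SD. The lengths are those of GENCODE exons, 20771 bases for Neat1 and 3175 for Mirg, while reads were counted on RefSeq models. The place of Neat1 below Mirg turns on that length, since by log2 CPM Neat1 was the higher of the pair.

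In liver the order per kilobase was another. Malat1 led with 4.87 log2 CPM per kb in Ctr, followed by Neat1 with 1.32, Snhg11 with 0.32, Rian with -1.88 and Meg3 with -3.82. The gap of 1.00 between Neat1 and Snhg11 was within the s.d. of 1.15 between pools, and all other neighbours stood farther apart than their s.d. In SD the gap between Snhg11 and Rian, 1.16, was within the s.d. of 1.43. By log2 CPM, Malat1 ranked 1088 of 14107 in Ctr liver, Neat1 6111, Snhg11 10010, Rian 12049 and Meg3 12652, so that high abundance among all genes did not extend to liver for most members. Meg3 was close to the limit of these libraries in liver. It had 0 to 129 reads per pool in Ctr with a median of 8, and 0 to 44 reads with a median of 5 in SD, and was at 0 reads in 3 Ctr and 5 SD pools. Rian had 1 to 227 reads in Ctr and 0 to 126 in SD. The tissues were scaled separately by the authors, so levels were not tested between them.

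**Figure D1:**
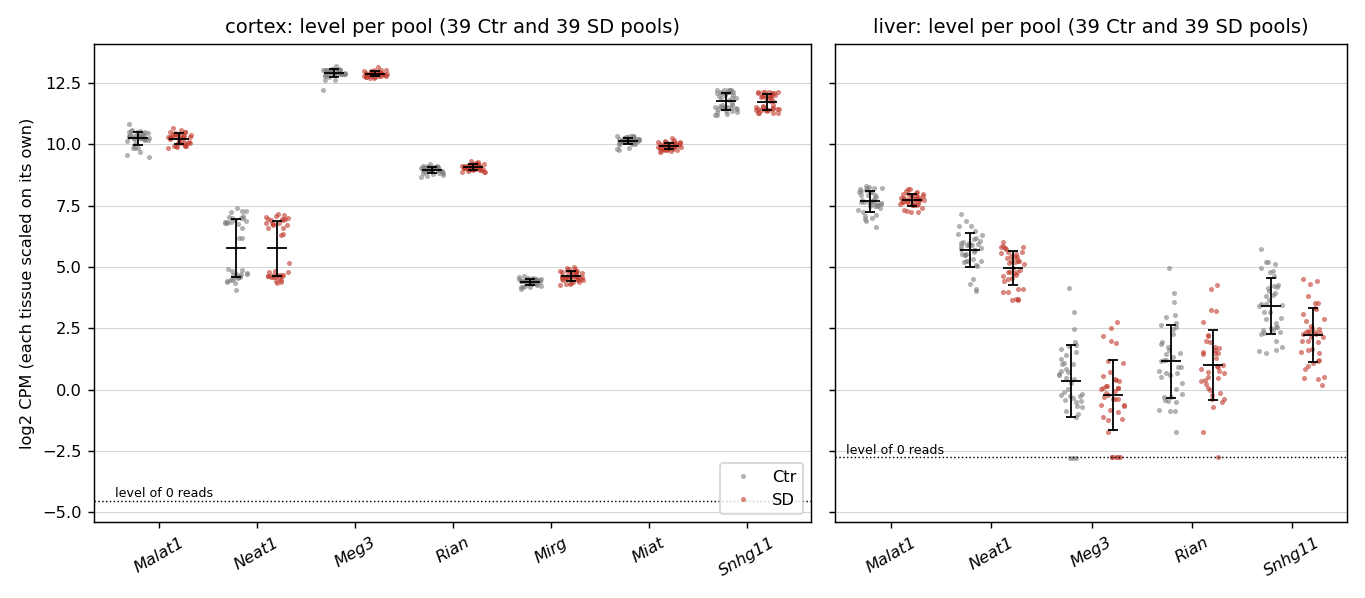
Level of each member in log2 CPM (vertical axis) in the 39 Ctr (grey) and 39 SD (red) pools of cortex (left) and liver (right), with the mean and s.d. as bars and the level of 0 reads as a dotted line. Neat1 falls into a lower and a higher set of pools in cortex, and Meg3 reaches the level of 0 reads in liver.

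The effect of SD was asked by comparing the 39 SD with the 39 Ctr pools of a tissue (limma with a variance trend, Benjamini-Hochberg adjustment over all listed genes, adjusted p under 0.05 as a call). In cortex 2 members rose and 1 fell, namely Rian and Mirg, the hosts of snoRNAs and microRNAs, and Miat. Of all genes 68.4% were called in cortex, so that 3 called members of 7 were fewer in share than the background. The median fitted change of the members was -0.01 on the log2 scale, the same as the -0.01 of all listed genes. The Ctr and SD ranges overlapped for every member in both tissues.

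Mirg, the microRNA host, had Ctr levels from 4.1 to 4.65 log2 CPM with a median of 4.43, and SD levels from 4.27 to 5.01 with a median of 4.59. The SD level was the higher in 34 of 39 pools. The fitted change was 0.23 (SE 0.036, adjusted p = 4.2e-08), a rise of 17.2%. The 5 pools that went the other way included BXD90, which had the lowest change, -0.30, and the highest change was the 0.69 of BXD64.

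Rian, the snoRNA host, ran from 8.69 to 9.22 log2 CPM in Ctr (median 8.99) and from 8.86 to 9.33 in SD (median 9.06). It rose by 0.10 (SE 0.026, adjusted p = 0.000697), or 6.95%, and was the higher in SD in 35 of 39 pools. By size of change it ranked 8883 of 14896. BXD90 was the lowest pool and BXD55 the highest in both conditions.

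Miat had levels from 9.77 to 10.36 log2 CPM in Ctr (median 10.15) and from 9.67 to 10.28 in SD (median 9.93). It fell by 0.21 on the log2 scale (SE 0.030, adjusted p = 7.1e-09), to 0.867 of the Ctr level, with 35 of 39 pools lower in SD. The same lines stood at the ends in both conditions, BXD51 at the lowest level and BXD64 at the highest.

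Meg3, the remaining member of the Dlk1-Dio3 cluster, did not pass the test in cortex. Its Ctr levels were 12.22 to 13.21 (median 12.94) and its SD levels 12.69 to 13.16 (median 12.86). The fitted change was -0.04 (SE 0.030, 95% interval -0.10 to 0.02, adjusted p = 0.270), with 28 of 39 pools lower in SD. The lowest Ctr level came from BXD90, and without this line the change was -0.05 with an adjusted p of 0.0511.

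Malat1 ran from 9.50 to 10.84 in Ctr and from 9.87 to 10.65 in SD, with medians of 10.28 and 10.28. Its change was -0.01 (SE 0.055, interval -0.12 to 0.10, adjusted p = 0.903), lower in 24 and higher in 15 pools. Snhg11 ran from 11.20 to 12.23 in Ctr (median 11.67) and from 11.27 to 12.15 in SD (median 11.77), with a change of -0.03 (SE 0.073, interval -0.17 to 0.12, adjusted p = 0.739) and 27 pools lower. For Neat1 the change was -0.01 (SE 0.256, interval -0.52 to 0.49, adjusted p = 0.963), with 20 pools higher and 19 lower. This wide interval held the differences between lines described below. Taking each line as its own pair, a replicate block, narrowed the SE of Neat1 to 0.029 and that of Snhg11 to 0.018, and their adjusted p-values stayed at 0.648 and 0.140.

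**Figure D2:**
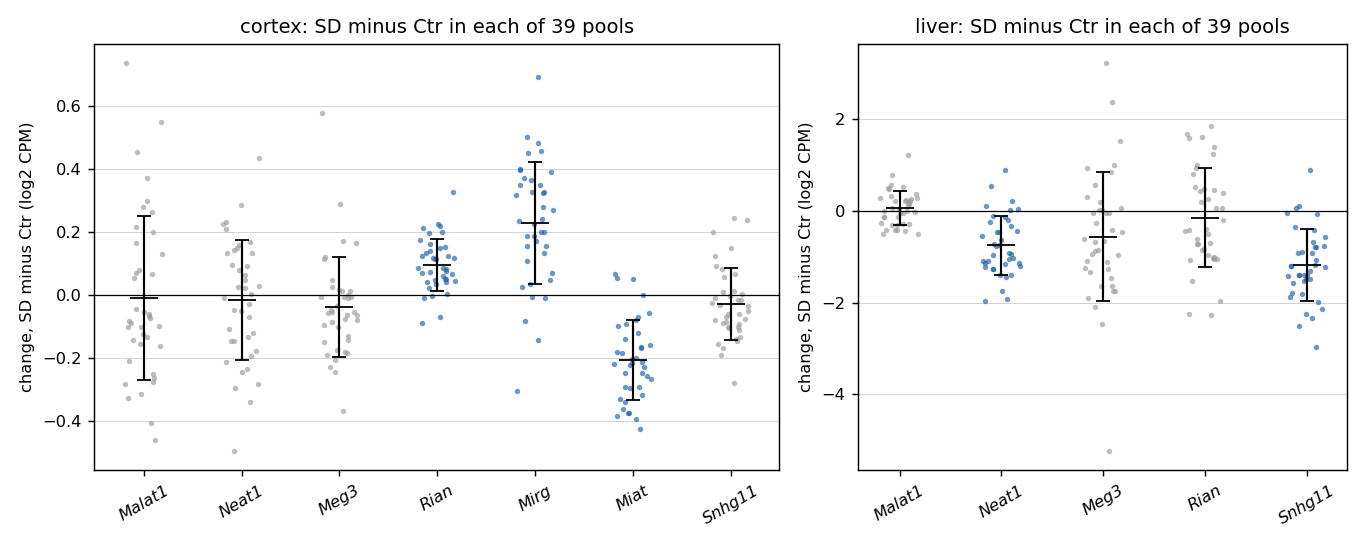
SD minus Ctr change of each member in log2 CPM (vertical axis) in each of 39 pools of cortex (left) and liver (right, on its own scale), with the mean and s.d. as bars and members that passed the test in blue. Mirg and Rian lie mostly above 0 and Miat mostly below it in cortex, while Neat1 and Snhg11 lie mostly below 0 in liver.

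The Ctr pool of BXD90 stood apart in cortex. It was the lowest of 39 for Meg3, Rian and Snhg11 and the second lowest for Malat1 and Miat, but the second highest for Mirg and 26 of 39 from the lowest for Neat1, and it had the highest scaling factor, 1.06. Without BXD90 the calls were the same for all 7 members, with changes of 0.09 for Rian, 0.24 for Mirg and -0.21 for Miat. Among cell type markers in cortex, 4 of 6 neuron markers fell, with a mean change of -0.07 over the list, and their summed level ran from 12.97 to 13.15 log2 CPM in Ctr and from 12.92 to 13.09 in SD. Of 6 microglia markers 3 fell and 1 rose (mean change -0.10), and of 6 astrocyte markers 2 rose (mean change 0.07). The share of all genes called in cortex was 68.4%, so these counts were near or below the background. Their part in the changes of the members was not tested. In such tissue RNA, fewer cells of a type and less RNA per cell cannot be told apart.

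RefSeq places 3 microRNA and 11 snoRNA genes inside Rian and 10 microRNA genes inside Mirg. In cortex 6 of the genes inside Rian and 6 of those inside Mirg were listed, and in liver 0. They were examined after the values of the hosts had been seen. All 8 listed microRNA genes passed the test in cortex, beside 68.4% of all genes, with 7 of the 8 higher in SD and 1 lower. Of the 4 listed snoRNA genes, 1 was higher, 1 lower and 2 were not called. The reads are fragments of polyadenylated RNA over the hairpin regions, 68 to 120 bases long for the microRNA genes, so that they show precursor transcripts and not mature microRNAs. Read numbers were low, and the authors' counting rule (union mode) drops a read that touches exons of both a host and the small RNA gene inside it.

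Mature sequences are shown for the 6 microRNA genes inside Mirg, because all 6 regions passed the test. They are from RefSeq (GRCm38.p6), lie between chr12:109735669 and chr12:109747949 on the plus strand, and carry the seed, bases 2 to 8, in capitals.
miR-377-5p: aGAGGUUGcccuuggugaauuc
miR-377-3p: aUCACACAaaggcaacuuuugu
miR-496a-5p: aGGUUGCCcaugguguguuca
miR-496a-3p: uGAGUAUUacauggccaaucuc
miR-453: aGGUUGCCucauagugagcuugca
miR-541-5p: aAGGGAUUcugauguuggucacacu
miR-541-3p: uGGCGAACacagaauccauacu
miR-409-5p: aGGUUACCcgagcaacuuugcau
miR-409-3p: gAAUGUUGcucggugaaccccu
miR-3072-5p: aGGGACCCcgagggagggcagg
miR-3072-3p: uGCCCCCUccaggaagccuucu
The products miR-453 and miR-496a-5p shared the seed GGUUGCC, and no other seed was shared within this set.

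Mir377, in an exon of Mirg, had 2 to 23 reads per pool in Ctr with a median of 13, and 17 to 45 in SD with a median of 29. The level was higher in SD in 39 of 39 pools, and the fitted change of 1.08 (SE 0.097, adjusted p = 5.7e-17) was 2.12-fold. Mir496, in an intron, went from a median of 7 reads to 12 and rose by 0.83 (SE 0.114, adjusted p = 8.5e-10), in 34 of 39 pools. The fitted change of Mirg itself was 0.23.

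Mir409 rose by 0.59 (32 of 39 pools), Mir541 by 0.54 (35 pools) and Mir453 by 0.43 (25 pools), with adjusted p-values from 1.2e-08 to 0.000525. Mir3072 went the other way, from 50 to 94 reads in Ctr (median 69) to 38 to 81 in SD (median 57), a change of -0.25 (SE 0.045, adjusted p = 9.0e-07) with 32 of 39 pools lower. Inside Rian, Mir341 rose by 0.24 (adjusted p = 0.0423) and Mir1188 by 0.23 (adjusted p = 0.0392).

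The snoRNA genes inside Rian did not move as a group. AF357426 had 3 to 25 reads in Ctr (median 11) and 9 to 45 in SD (median 26), and rose by 1.07 (SE 0.123, adjusted p = 2.4e-12) with 38 of 39 pools higher. DQ267100 fell by 0.32 (SE 0.078, adjusted p = 0.000194) in 34 of 39 pools, from a median of 36 to 29 reads. AF357359 (0.07, adjusted p = 0.0625) and DQ267102 (0.10, adjusted p = 0.314) were not called. RefSeq also places 2 microRNA genes inside Meg3 and 2 snoRNA genes inside Snhg11, none of which was listed.

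**Figure D3:**
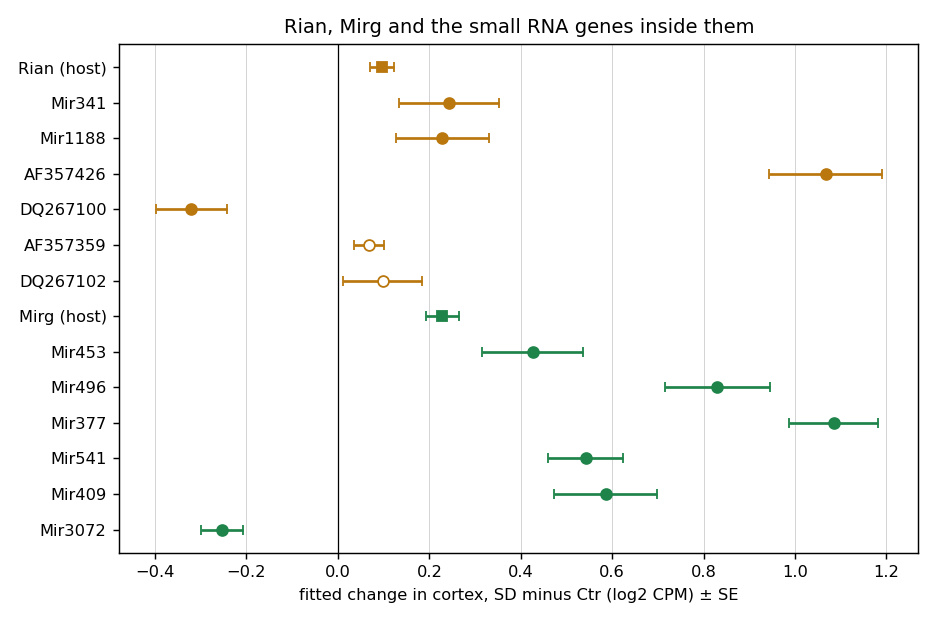
Fitted SD minus Ctr change in cortex in log2 CPM (horizontal axis) with its SE for Rian and Mirg (squares) and for the 12 small RNA genes inside them (circles, filled where the test was passed), in brown for Rian and green for Mirg. Mir377 and AF357426 lie at 1.08 and 1.07, while Mir3072 and DQ267100 lie below 0.

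In liver, 2 of the 5 listed members passed the test, Neat1 and Snhg11, and both were lower in SD. Of all genes 44.2% were called in liver. The median fitted change of the 5 members was -0.56, that of all listed genes -0.00. This median is the value of Meg3, which was not called and had few reads. Malat1 (0.06) and Rian (-0.14) changed less and were not called. Snhg11 ranked 92 and Neat1 395 of 14107 by size of change.

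Neat1, the scaffold of paraspeckles, had levels from 4.00 to 7.17 log2 CPM in Ctr (median 5.78) and from 3.67 to 6.03 in SD (median 5.11). It fell by 0.75 on the log2 scale (SE 0.154, adjusted p = 2.9e-05), to 0.594 of the Ctr level, with 33 of 39 pools lower. BXD50 was the lowest and BXD97 the highest pool in both conditions, and the change ran from -1.97 in BXD100 to 0.89 in BXD85. The 4 BXD/TyJ lines, which were not in the fit, changed by -0.91 (BXD05), -0.99 (BXD29), -0.82 (BXD29t) and -1.25 (BXD32). Over the 78 liver pools, with the condition means removed, the level of Neat1 had a Pearson r of 0.62 with log2 library reads and of -0.65 with the summed hepatocyte markers. None of the 6 hepatocyte markers was called, beside 44.2% of all genes. Their summed level ran from 10.53 to 11.27 in Ctr and from 10.52 to 11.21 in SD. The part of depth in the response of Neat1 was not tested.

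Snhg11 had 18 to 369 reads per liver pool in Ctr (median 77) and 7 to 164 in SD (median 31). On the log2 CPM scale this was 1.51 to 5.73 in Ctr (median 3.46) and 0.19 to 4.52 in SD (median 2.27). It fell by 1.18 (SE 0.249, adjusted p = 4.8e-05), to 0.44 of the Ctr level, in 36 of 39 pools. BXD44 was the highest pool in both conditions. Of the neuron markers, 2 of 6 were listed in liver, Syt1 with a change of -0.82 (adjusted p = 1.1e-18) and Rbfox3 with -0.24 (adjusted p = 0.107), while Snap25, Stmn2, Slc17a7 and Gad1 were not listed. The summed level of the 2 ran from 5.50 to 6.81 in Ctr and from 4.48 to 5.78 in SD. All 6 B cell markers fell in liver (mean change -1.38), where 44.2% of all genes were called. Their summed level ran from 2.95 to 4.90 in Ctr and from 1.46 to 3.87 in SD. Over the 78 liver pools, with the condition means removed, Snhg11 had a Pearson r of 0.04 with the 2 summed neuron markers. Its r with the summed B cell markers was 0.18. The part of neurons or B cells in the response of Snhg11 was not tested.

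Meg3 ran from -2.77 to 4.16 log2 CPM in Ctr liver (median 0.43) and from -2.75 to 2.77 in SD (median -0.13). The fitted change was -0.56 (SE 0.321, interval -1.20 to 0.08, adjusted p = 0.157), with 27 of 39 pools lower. When lines entered the limma fit as a replicate block, the SE was 0.217 and the adjusted p 0.0269. Meg3 in liver thus passed only in fits that paired the Ctr and SD pools of a line, which the main fit did not do. The pools at the ends were BXD70, which went from 33 reads to 0, and BXD85, which went from 0 to 9.

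Rian had a change of -0.14 in liver (SE 0.323, interval -0.79 to 0.50, adjusted p = 0.755), with 21 pools lower and 18 higher. Malat1 ran from 6.63 to 8.30 in Ctr and from 7.24 to 8.20 in SD, with a change of 0.06 (SE 0.077, interval -0.09 to 0.21, adjusted p = 0.551). The lowest Malat1 level was that of DB-F1 in Ctr, which was also the pool with the fewest reads in Ctr, 5034166, and the lowest scaling factor, 0.919. This pool was the second lowest for Neat1 and at 0 reads for Meg3. Without DB-F1 the liver calls were the same for all 5 members, with -0.77 for Neat1, -1.19 for Snhg11 and -0.64 for Meg3 (adjusted p = 0.100 for Meg3).

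Whether the tissues differed in response was tested by taking the SD minus Ctr change of cortex from that of liver. For this the cortex and liver pools were matched by strain and replicate. The differences of Neat1, Meg3 and Snhg11 passed the test, 3 of the 5 members listed in both tissues, against 57.6% of all genes. Snhg11 had a difference of -1.15 (SE 0.121, adjusted p = 4.8e-11), with a more negative value in liver in 36 of 39 pools. The difference for Neat1 was -0.74 (SE 0.100, adjusted p = 3.1e-08), lower in liver in 34 pools. Meg3 had -0.52 (SE 0.218, adjusted p = 0.0382), lower in liver in 25 of 39 pools, and this call was lost without the pairing by pool (adjusted p = 0.184). The differences of Malat1, 0.07 (adjusted p = 0.390), and Rian, -0.24 (adjusted p = 0.204), did not pass.

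Strains were compared in a fit of both conditions, where the Ctr and SD pools of a strain served as its separate measures. In cortex all 7 members differed between strains, against 55.5% of all genes, and in liver all 5, against 62.1%. The share of variance that lay between strains ranged widely. It was 98.6% for Neat1 in cortex (rank 22 of 14896) and 94.0% for Snhg11 (rank 207), then 74.2% for Rian, 57.2% for Miat and 45.2% for Malat1. Meg3 with 29.0% and Mirg with 23.8% were below the median of all genes, 31.4%. Mirg was near the threshold (adjusted p = 0.0455) and did not pass with the 33 BXD/RwwJ lines alone (adjusted p = 0.0834). In liver the shares were 76.2% for Snhg11, 73.0% for Rian, 58.2% for Neat1, 53.2% for Meg3 and 37.3% for Malat1, with a median of 34.2% over all genes.

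**Figure D4:**
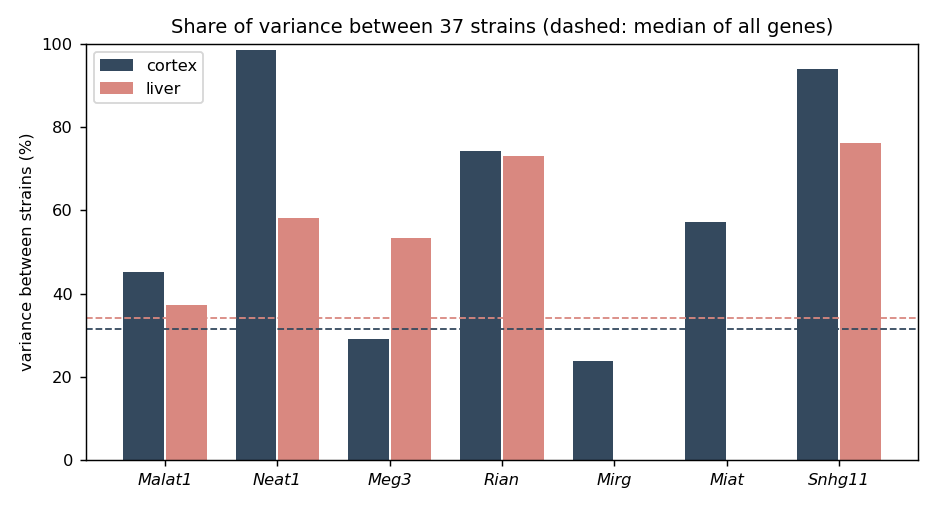
Share of the variance of each member that lay between 37 strains (vertical axis, percent) in cortex (dark) and liver (light), with the median of all listed genes as a dashed line in each colour. Neat1 reaches 98.6% and Snhg11 94.0% in cortex, and Meg3 and Mirg lie below the median there.

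Neat1 split the strains into separate sets in cortex. In Ctr, 18 strains lay between 4.08 and 4.92 log2 CPM and 19 between 6.16 and 7.42, with a gap of 1.25 that took 37.4% of the whole range. In SD the same strains lay on the same sides of a gap from 5.16 to 6.29. D2 was on the lower side, with 4.83 and 4.88 in its Ctr pools and 4.69 and 4.68 in SD. B6 was on the higher side, with 7.28 and 7.05 in Ctr and 6.99 and 6.90 in SD. Of the 33 BXD/RwwJ lines, 17 were on the lower and 16 on the higher side. The F1 pools were at the lower edge of the higher side, with 6.19 for BD-F1 and 6.16 for DB-F1 in Ctr and 6.29 and 6.33 in SD, below all 16 higher BXD lines in both conditions. Of the BXD/TyJ lines, BXD32 lay at 4.55 in Ctr and 4.55 in SD, and the other 3 at 6.58 to 7.18 in Ctr and 6.45 to 6.80 in SD. No other member had a gap over 25% of its range with at least 6 strains on each side, in either tissue. In liver Neat1 ran from 4.00 to 7.17 across strains with no such gap.

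Snhg11 in cortex was spread from 11.20 in BXD90 to 12.23 in BXD85 in Ctr, with its widest gap, 0.15, between 19 lower and 18 higher strains. B6 had 11.90 and 11.97 and D2 11.59 and 11.61 in Ctr. Of the 33 BXD/RwwJ lines 14 lay above and 17 below all 4 parental pools. In liver the lines ran from 1.51 to 5.73 in Ctr, and the parental pools, from 2.94 to 4.18, had 9 BXD/RwwJ lines above and 14 below them.

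**Figure D5:**
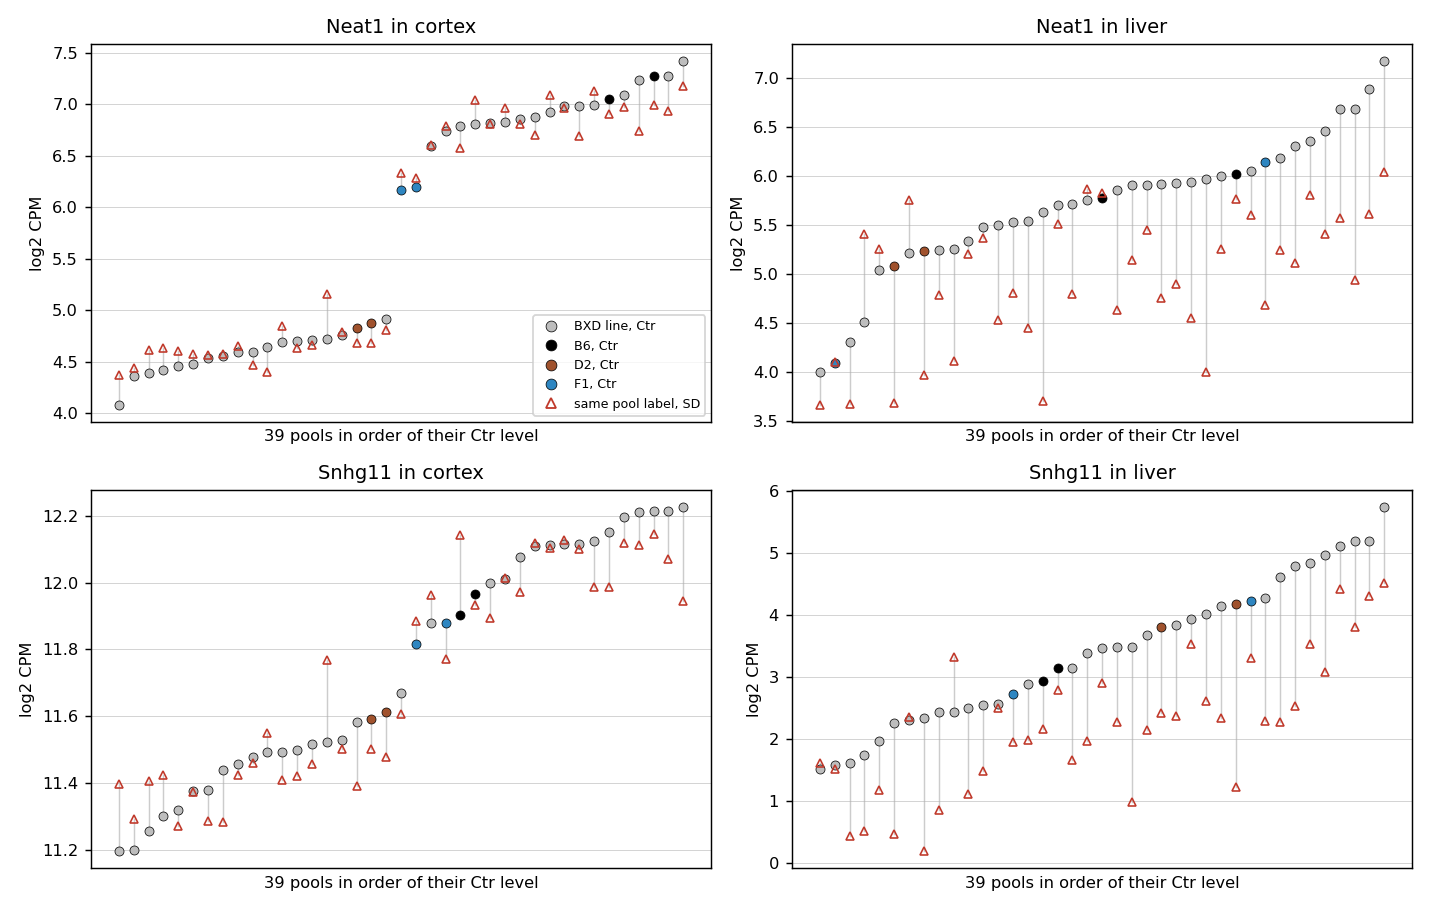
Levels of Neat1 (top) and Snhg11 (bottom) in log2 CPM (vertical axis) in cortex (left) and liver (right) for 39 pools in order of their Ctr level, with circles for Ctr and triangles for the SD pool of the same strain. In cortex the Neat1 circles leave a gap between 4.92 and 6.16 that no triangle enters beyond 5.16, and in liver most triangles of both genes lie below their circles.

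The parental strains were compared as B6 minus D2 over both conditions, which rests on 2 pools per strain and condition. In cortex 2 of 7 members passed the test, Neat1 and Snhg11, against 26.8% of all genes. Neat1 was higher in B6 by 2.29 (SE 0.090, adjusted p = 1.3e-26), which is 4.88-fold and ranked 22 of 14896 by p. Snhg11 was higher in B6 by 0.44 (SE 0.056, adjusted p = 1.1e-08). In liver 1 of 5 passed, against 19.3% of all genes. Neat1 was higher in B6 by 1.35 (SE 0.297, adjusted p = 0.00053), with 5.78 and 6.02 in the Ctr pools of B6 against 5.23 and 5.08 in those of D2, and 5.82 and 5.77 against 3.97 and 3.69 in SD. The difference was 0.74 from Ctr pools alone and 1.97 from SD pools alone, and both passed the test. For the remaining members the fitted difference lay between -0.15 and 0.04 in cortex and between -0.67 and -0.07 in liver, and none passed. In Ctr pools alone Malat1 passed in cortex (0.21, adjusted p = 0.017) and in liver (-0.58, adjusted p = 0.0147), as did Snhg11 in liver (-0.95, adjusted p = 0.0305). SD pools alone gave -0.12 for Malat1 in cortex and 0.66 for Snhg11 in liver. Such fits of 1 condition take their spread only from the 2 pools of each parental strain. For Malat1 in Ctr liver those 2 pools were 0.34 apart in B6 and 0.28 apart in D2.

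Reciprocal F1 crosses carry the same autosomal alleles from opposite parents. The comparison bears on Meg3, Rian and Mirg, which lie in an imprinted cluster, and rests on 1 pool per cross and condition. No member passed the test in cortex, where 0.114% of all genes were called, or in liver, where 0.00709% were called. The largest cortex difference was that of Mirg, 0.28 higher in BD-F1 (SE 0.134, adjusted p = 0.711), with 627 against 471 reads in Ctr and 607 against 687 in SD, the last pair from libraries of unequal depth (20121934 and 28685060 reads). Rian was higher in BD-F1 by 0.14 (SE 0.059, adjusted p = 0.684) and Meg3 by 0.04 (SE 0.109, adjusted p = 0.956).

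In liver Meg3 was higher in BD-F1 by 4.13 (SE 0.946, p = 6.9e-05 in limma, adjusted p = 0.122) and Rian by 3.33 (SE 0.727, p = 3.3e-05 in limma, adjusted p = 0.0784). They ranked 8 and 6 of 14107 genes by p. Meg3 had 62 reads in BD-F1 and 0 in DB-F1 in Ctr, at least 13.8-fold higher when 3 reads in that library are taken as the limit of detection, and 21 against 4 in SD. Rian had 105 against 4 reads in Ctr and 53 against 8 in SD. For both genes BD-F1 lay above and DB-F1 below all 4 parental liver pools in each condition. In Ctr, BD-F1 had 3.18 log2 CPM for Meg3 and 3.93 for Rian, and the highest parental pool, from D2, had 1.83 and 2.71. B6 minus D2 in liver was -0.07 for Meg3 and -0.67 for Rian, neither called. The part of imprinting in the F1 differences was not tested. Neat1 (1.31, SE 0.42, adjusted p = 0.427), Snhg11 (1.43, SE 0.523, adjusted p = 0.556) and Malat1 (0.55, SE 0.257, adjusted p = 0.672) were also higher in BD-F1, and all 5 liver members were the higher there in each condition. From Ctr pools alone all 5 liver members passed, including Neat1 (2.05, adjusted p = 0.00222) and Malat1 (1.05, adjusted p = 0.0308), together with 822 genes in all, and from SD pools alone 0 genes passed. These fits of 1 condition take their spread from the parental pools only, and the Ctr pool of DB-F1 is the one that stood apart above.

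Whether lines kept their order was asked by correlating Ctr with SD levels across 37 strains, with the pools of each parental strain averaged (permutation test with 100000 resamples, adjusted over 24 relations). The smallest p these permutations can give is 1e-05. In cortex Snhg11 had a Pearson r of 0.95 (Spearman 0.89), Rian 0.78 (0.74), Miat 0.56 (0.60) and Malat1 0.44 (0.47), with adjusted p-values from 6.0e-05 to 0.0117. Meg3 had 0.33 (0.39) with an adjusted p of 0.0872 for Pearson's r and 0.0343 for Spearman's rho, and r was 0.41 without the 2 strains farthest from the median, BXD90 and BXD56. Mirg had 0.27 (0.25, adjusted p = 0.161). Because Neat1 splits the strains in cortex, its r was taken within each set. In the 18 lower strains r was 0.60 (adjusted p = 0.0202 by permutation) and rho 0.71 (adjusted p = 0.00411 by permutation). In the 19 higher strains r was 0.78 (adjusted p = 0.000576 by permutation) and rho 0.59 (adjusted p = 0.0186 by permutation). Without the 2 farthest strains r was 0.47 in the lower set (without BXD48 and BXD49, adjusted p = 0.111) and 0.50 in the higher set (without the F1 strains, adjusted p = 0.0819), so that r then missed the threshold in both.

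In liver r between Ctr and SD was 0.78 for Snhg11 (Spearman 0.76), 0.73 for Rian (0.70), 0.56 for Neat1 (0.45), 0.54 for Meg3 (0.53) and 0.46 for Malat1 (0.50), with adjusted p-values from 6.0e-05 to 0.00989. Without the 2 farthest strains r was 0.76, 0.65, 0.44, 0.40 and 0.57 in this order. Ctr levels in cortex and liver of the same strains passed the test for Snhg11, with r = 0.60 (Spearman 0.57, adjusted p = 0.0006, and 0.64 without the 2 farthest strains). Rian had 0.35 (0.36, adjusted p = 0.0674, and 0.24 without the 2 farthest). The r of Malat1, Meg3 and Neat1 within its sets lay between 0.02 and 0.22, with adjusted p-values of at least 0.503. For the SD response, no member passed the test between the tissues, with r from -0.16 to 0.18 and adjusted p-values of at least 0.413.

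Members were also correlated with each other across the 78 pools of a tissue with the condition means removed. These r values share libraries and scaling and are given as descriptions. In cortex Meg3 had 0.71 with Miat and 0.68 with Rian, and Rian had 0.63 with Mirg. Meg3 with Mirg gave 0.43. Neat1 ran from -0.29 with Rian to -0.02 with Snhg11 and was below 0 with all other members. Malat1 and Neat1, although adjacent, had -0.12 in cortex and 0.38 in liver. In liver the highest r was that of Meg3 with Rian, 0.69. Among markers of brain cell types in cortex, the largest values were those of Snhg11 with the summed microglia markers, 0.57, and of Meg3 with the astrocyte markers, 0.50. Snhg11 also had 0.53 with the 2 Kupffer cell markers listed in cortex, of which Csf1r is in the microglia list too.

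The 2 genes with the pattern most like each member were taken over the same 78 pools. In cortex they included genes on its chromosome for Neat1, Snhg11 and Miat. For Neat1 they were Bbs1 (r = 0.86, 0.918 Mb away) and Ehd1 (0.81, 0.428 Mb). For Snhg11 they were Gm14169 (0.90, 1.76 Mb) and Manbal (0.83, 0.979 Mb), and for Miat Adrbk2 (0.72, 0.682 Mb) and L3mbtl1 on another chromosome (0.69). Rian was most like AF357359 (0.85), a snoRNA gene inside Rian itself, and Col19a1 (0.71). Meg3 was most like Sfrs18 (0.83) and Celsr3 (0.79), Mirg most like Lime1 (0.69) and Ssh3 (0.68), and Malat1 most like 9530091C08Rik (0.59) and Tcp11l1 (0.56). Col19a1 and these genes lay on other chromosomes than the member, apart from 9530091C08Rik, which had no matched position. In liver the closest were Leng8 (0.85) and 6720401G13Rik (0.81) to Neat1, Cyp2d37-ps (0.68) and Ccnl2 (0.66) to Malat1, Rin2 (0.54) and Rb1 (0.52) to Snhg11, Tmc4 and Ccr2 (0.49 each) to Meg3, and Gm13178 (0.45) and Dhtkd1 (0.42) to Rian. Of these liver genes only Rin2 lay on the chromosome of its member, 12.5 Mb away.

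Of the genes next to the members, Dio3, the deiodinase that inactivates thyroid hormone and lies at the far end of the Dlk1-Dio3 cluster, rose in both tissues. In cortex its change was 0.96 (SE 0.131, adjusted p = 6.6e-10, 34 of 39 pools) and in liver 0.80 (SE 0.208, adjusted p = 0.000878, 31 of 39 pools), at low levels of -0.58 and -1.70 log2 CPM in Ctr. Its antisense transcript Dio3os rose by 1.16 in liver (adjusted p = 0.000173). Of 8 other genes of the cluster and its flanks, 6 were listed in cortex, where 3 rose and 0 fell. Besides Dio3 these were Wars (0.09) and Ppp2r5c (0.08), each higher in 38 of 39 pools, while Dlk1 (0.13, adjusted p = 0.648), Begain (-0.00, adjusted p = 0.95) and Wdr25 (0.12, adjusted p = 0.0582) were not called. In liver 4 were listed and 1, Dio3, rose, whereas Wars (0.06), Ppp2r5c (0.04) and Wdr25 (-0.04) were not called. The median change of the list was 0.10 in cortex and 0.05 in liver. The share of all genes called was 68.4% in cortex and 44.2% in liver.

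Beside the other members, Crybb1, a lens crystallin gene next to Miat, rose by 0.83 in cortex (adjusted p = 1.1e-11). Frmd8, 4.22 kb from Neat1, had -0.01 in cortex and -0.03 in liver, neither called. Next to Snhg11, 9430008C03Rik fell by 0.35 (adjusted p = 2.4e-05) and Ralgapb rose by 0.15 (adjusted p = 0.0161) in liver, and neither was called in cortex.

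Other host genes of snoRNAs were followed as a list. Of 11 listed in cortex 0 rose and 5 fell, with a median change of -0.06 and Snhg3 (-0.33) and Snhg1 (-0.21) the farthest down. Of 12 listed in liver 3 rose and 0 fell, with a median of 0.17 and Snhg4 (0.55) and Snhg1 (0.34) the farthest up, where Snhg11 fell. Of the other long noncoding RNAs examined, 5 rose and 5 fell of 17 listed in cortex, among them Dleu2 (0.66), Dlx6os1 (0.48), Pcsk2os1 (-0.42) and Jpx (-0.31). In liver 3 rose and 3 fell of 14, among them Dleu2 (0.49), 2900097C17Rik (0.09), Mir22hg (-0.73) and Airn (-0.56). The medians were 0.02 and -0.06. For both lists, the share of all genes called was 68.4% in cortex and 44.2% in liver.

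The proteins of the bodies in which Neat1 and Malat1 reside were also followed. Of 17 paraspeckle protein genes in cortex, 9 rose and 3 fell (median change 0.04), with Rbm14 (0.48) and Sfpq (0.39) the largest rises and Hnrnpr (-0.42) the largest fall. In liver, where Neat1 fell, 5 of the 17 rose and 5 fell (median 0.03). Pspc1 fell by 0.85 in 39 of 39 pools, while Hnrnph3 rose by 0.55 and Rbm14 by 0.43. Of 20 nuclear speckle protein genes, 11 rose and 4 fell in cortex (median 0.06), led by the splicing regulators Tra2a (0.66) and Srsf7 (0.33), against Srrm2 (-0.19) and Luc7l3 (-0.06). Of all genes 68.4% were called in cortex, beside 12 of the 17 paraspeckle and 15 of the 20 speckle genes. In liver 6 of the speckle genes rose and 7 fell (median 0.00), with Tra2a (0.88) and Pnn (0.19) on one side and Srsf2 (-0.38) and Srsf3 (-0.29) on the other. The share of all genes called in liver was 44.2%, beside 10 of the 17 and 13 of the 20.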

How the data were processed

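RNA of cortex and liver was sequenced from pools of mice as polyadenylated, stranded 100-base single-end libraries. Reads were aligned by the authors to mm9 with STAR, assigned to RefSeq genes with htseq-count (reverse strand, union mode) and filtered for genes with a mean raw count under 10. The deposited values are log2 CPM after TMM scaling by edgeR, which the authors ran separately for each tissue. All 4 tables were read. Whole reads were recovered from 100.0% of values within 0.02 of a whole number, and serve for depth, read numbers and an alternative fit with voom, which called 10199 genes in cortex and 6280 in liver.

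From the deposited values, the SD response, its difference between tissues, strain differences, B6 minus D2 and BD-F1 minus DB-F1 were fitted with limma 3.58.1 (R 4.3.3) with a variance trend, over every listed gene and with Benjamini-Hochberg adjustment. The study applied voom to its counts instead. Pools of different strains served as replicates, so that p-values rest on the spread between strains. The strain numbers pair the Ctr and SD pools, but the main SD fits did not use this pairing. Their SE thus held differences between lines. Deviations from the condition means correlated between the pools of a strain with a median r of 0.614 in cortex and 0.475 in liver, against -0.02 between strains, and the lowest value was 0.299 and 0.169. Line correlations used permutations in numpy 2.4.6. The SD fit and the strain fit were tested on simulated data. Lengths and positions are from GENCODE on mm9, where 13772 of 14896 cortex and 13105 of 14107 liver genes had 1 match.

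The 7 members, the gene lists and the markers were chosen with earlier results of these data known. Named genes were all members, the Dlk1-Dio3 list, the 2 largest rises and falls of each other list, the nearest listed genes and the 2 genes most like each member. Some genes that this rule names are not reported here. The split of Neat1 strains, the small RNA genes and the fits without BXD90 or DB-F1 were chosen after seeing the data. The 4 BXD/TyJ lines (16 of 172 libraries) were left out of the comparisons except in 1 alternative of the SD response, and were examined apart for pools far from the other 3.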

Additional observations from a re-analysis of the deposited data

Results flagged for a closer look

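The response to SD differed between the tissues for 3 members by the test of the difference itself (limma, adjusted over 12695 genes). The change in liver less that in cortex was -1.15 for Snhg11, -0.74 for Neat1 and -0.52 for Meg3 on the log2 scale. Meg3 reads were few in liver, and its difference passed only with the pairing by pool.

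Among the 4 BXD/TyJ pools, 1 pool stood far from the other 3 in 3 of 24 groups of a gene, tissue and condition. Chance alone would give about 1 in 20 in independent groups. These groups come from the same 4 lines, so the count cannot be set against that rate. Neat1 in SD cortex was lowest in BXD32 at 4.55 log2 CPM, the lower side of the split of strains described above. Malat1 in SD liver was highest in BXD32 at 8.21, and Neat1 in SD liver was highest in BXD29t at 5.33.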

How the results depend on the processing

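Of the values recomputed under other settings, 384 for single genes or relations and 58 counts kept their direction and side of the threshold, or stayed within 1.5 times. In the SD response, the replicate block by line moved the counts of called genes to 11359 in cortex and 7603 in liver. Among members it changed the call of Meg3 in liver (adjusted p = 0.0269, and 0.00772 with voom) and no other. With the BXD/TyJ lines, Malat1 in cortex had 0.0076. Under the same settings Rian, Mirg and Miat in cortex and Neat1 and Snhg11 in liver passed throughout.

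B6 minus D2 counts fell to 2326 (Ctr pools) and 1798 (SD pools) in cortex, from 3988, and to 1531 (Ctr pools) in liver, from 2726, where leaving out a parental pool gave 1735 to 1867. Leaving out such a pool gave -0.011 to 0.10 for Malat1 and -0.067 to 0.0054 for Miat in cortex, and -0.48 to 0.35 for Meg3 and -0.36 to 0.063 for Snhg11 in liver. SD pools alone gave -0.12 for Malat1, 0.013 for Rian and 0.051 for Miat in cortex, and 0.68 for Meg3 and 0.66 for Snhg11 in liver, each with the opposite sign to the fit of both conditions.

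BD-F1 minus DB-F1 in cortex called 8 genes in Ctr and 2 in SD pools, against 17, and Ctr pools gave 0.033 for Malat1, 0.030 for Neat1, -0.0056 for Miat and -0.063 for Snhg11. In liver, limma called 0 genes after median centring, 0 with voom, 0 in SD pools and 822 in Ctr pools, against 1. At an unadjusted p under 0.05, the 3 settings with 0 calls gave 1000, 774 and 697 genes. Between cortex and liver, r turned to -0.22 (lower Neat1 strains) and -0.19 (higher) without the 2 farthest strains, and to -0.21 (higher Neat1 strains) and -0.0054 (Meg3) with BXD/RwwJ lines alone. The cause of these changes was not tested. Depth limits Meg3 and Rian in liver, where several pools held few or no reads.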
